A study of Mus musculus with 66 samples.

Results

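The 10 genes followed here mark or drive the passage of an epithelial cell toward a mesenchymal state, and were measured by RNA sequencing of mouse bladder samples. They are the transcription factors Snai1, Snai2, Zeb1, Zeb2 and Twist1, the intermediate filament vimentin (Vim), E-cadherin (Cdh1), N-cadherin (Cdh2) and the splicing factors Esrp1 and Esrp2. The genes were listed by name, though with earlier results of these data known. All 10 were found by Ensembl identifier among the 39179 genes of the count tables. The RNA came from BC57, a mouse bladder cancer cell line grown in DMEM with 10% fetal bovine serum, and from normal urothelium (MNU) removed from 9 mice. Each was kept fresh frozen (FF) or held in formalin for 24 h and embedded in paraffin (FFPE). No genotype, strain or age is stated for either. The FF and FFPE samples were sequenced with the Ovation SoLo kit at 2 ng, 250 pg and 50 pg of total RNA and with the SMARTer Pico kit at 2 ng and 250 pg, and the FF samples also with poly(A) selection at 1 µg. This gave 66 libraries in 22 groups of 3. BC57 is 1 cell line, and the labels do not say how tissue of the 9 mice was combined. The series' design text gives 4 samples, each tested in triplicate, and names no separate cultures or animals for the repeats, so the p-values below measure the technical spread between libraries and not the spread between cultures or animals.

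Epithelial-mesenchymal transition (EMT) is the programme by which epithelial cells loosen their junctions and take on migratory features. The Snail, Zeb and Twist factors bind E-box motifs and repress epithelial genes such as Cdh1, while fibroblasts, endothelial cells and immune cells also express several of them as part of their own identity. Esrp1 and Esrp2 are epithelial RNA-binding proteins that select the epithelial exons of transcripts such as Fgfr2, Cd44 and Ctnnd1. Zeb1 and Zeb2 are held down in epithelia by the miR-200 family, whose own genes the Zeb proteins repress. In the bladder, the urothelium lies on a stroma of fibroblasts, vessels and smooth muscle.

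The miR-200 family and its sites show the wiring that links the Zeb genes to the epithelial state, and are printed for that reason. The family falls into 2 seed groups that differ at 1 base of the seed. The mature sequences are from RefSeq (GRCm38.p6), 5′ to 3′, with the seed (bases 2 to 8) in capitals.
mmu-miR-200b-3p: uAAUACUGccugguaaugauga
mmu-miR-200c-3p: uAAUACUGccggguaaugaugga
mmu-miR-429-3p: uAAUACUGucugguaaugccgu
mmu-miR-200a-3p: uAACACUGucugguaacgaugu
mmu-miR-141-3p: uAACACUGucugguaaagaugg

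The longest annotated 3′ UTR of Zeb2 (4941 bases, GENCODE M21) held 5 copies of CAGTATT, which pairs with the seed of miR-200b, miR-200c and miR-429, and 4 copies of CAGTGTT, which pairs with that of miR-200a and miR-141. Only the transcript strand was searched. Of the 822 UTRs at least as long, that of Zeb2 included, cut to the same length, 38.686% held CAGTATT at all. As many copies were held by 0.122%, which is 1 UTR, that of Zeb2 itself. For CAGTGTT the shares were 51.703% and 1.217%. The 2401 bases of the Zeb1 3′ UTR also held 5 and 4 copies, where 22.742% and 31.342% of 4151 such UTRs held any. There 0.048% and 0.145% held as many, Zeb1 included. Of the 9 sites, 8 start within 1039 bases of the end of the stop codon, and 5 of these are given 5′ to 3′ on the transcript (minus strand, mm10), with the match in capitals.
Zeb2 site at chr2:44988350-44988376: aaaaattttgtaCAGTGTTaaggccta
Zeb2 site at chr2:44988166-44988192: actaccatacatCAGTATTttattatt
Zeb2 site at chr2:44988101-44988127: actacagtgcatCAGTATTacgattcc
Zeb2 site at chr2:44987654-44987680: cattaattttgtCAGTATTacaccaaa
Zeb2 site at chr2:44987520-44987546: tactgtagtgtaCAGTATTatagttct
A match describes the letters of the UTR and is no measurement of binding.

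The poly(A) libraries were the deepest, with 18499591 to 36187226 counts each, against 928722 to 4706030 with Ovation and 651879 to 7152648 with SMARTer, so the scarce regulators rest mainly on the poly(A) data. In urothelium 2 libraries stood apart: replicate 3 of the SMARTer FFPE urothelium had 780106 counts at 2 ng and a mean correlation of 0.584 with the other libraries of its group, and replicate 3 at 250 pg had 651879 counts and a correlation of 0.226. Levels are in CPM (counts scaled to library size), adjusted within each BC57 and urothelium pair by the trimmed mean of M-values (TMM). Levels per kb of exon were divided by all annotated exon bases of a gene, merged over its transcripts. A gene was called different at an adjusted p under 0.05 in edgeR's quasi-likelihood test over all genes tested (Benjamini-Hochberg).

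Markers of cell types were summed to show what each sample held. The urothelial list held 13 genes, which were uroplakins, keratins and transcription factors. By poly(A) sequencing it summed to between 13345 and 14569 CPM in the urothelium. In BC57 it summed to between 3942 and 4066 CPM, where Krt7 alone gave 3564 CPM. The uroplakin Upk1a, a defining marker of the superficial urothelium, was at 1.75 ± 0.334 CPM in BC57 against 2495 ± 216 CPM in the urothelium, and basal Krt15 was at 2.37 against 1655 CPM. The uroplakin Upk1b was also lower but still present, at 197 CPM in BC57 against 2167 CPM in the urothelium. BC57 therefore carried the keratin Krt7 and some Upk1b, but almost no Upk1a or Krt15. The urothelium also carried stromal RNA. Its 12 fibroblast markers summed to between 10076 and 10931 CPM against 27 to 29.3 CPM in BC57, its 10 endothelial markers to 412 to 437 against 9.98 to 11.8 CPM, its 13 immune markers to 449 to 479 against 27.6 to 27.8 CPM, its 10 smooth muscle markers to 265 to 290 against 30.3 to 32.5 CPM and its 4 pericyte markers to 837 to 874 against 10.7 to 12 CPM. Over all 11 conditions the fibroblast sum stayed between 16.1 and 97.5 CPM in every BC57 library, and Lum and Dpt were at 0 counts in BC57 with both 2 ng FF kits. The 5 Schwann markers summed to a like level in both samples by poly(A) sequencing (83.2 to 87.8 CPM in BC57 against 79.0 to 84.7 CPM), most of it from Mbp. In such bulk samples, fewer cells of a type and less RNA per cell cannot be told apart, and the part of stromal cells in the urothelium's levels below was not tested.

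**Figure D1:**
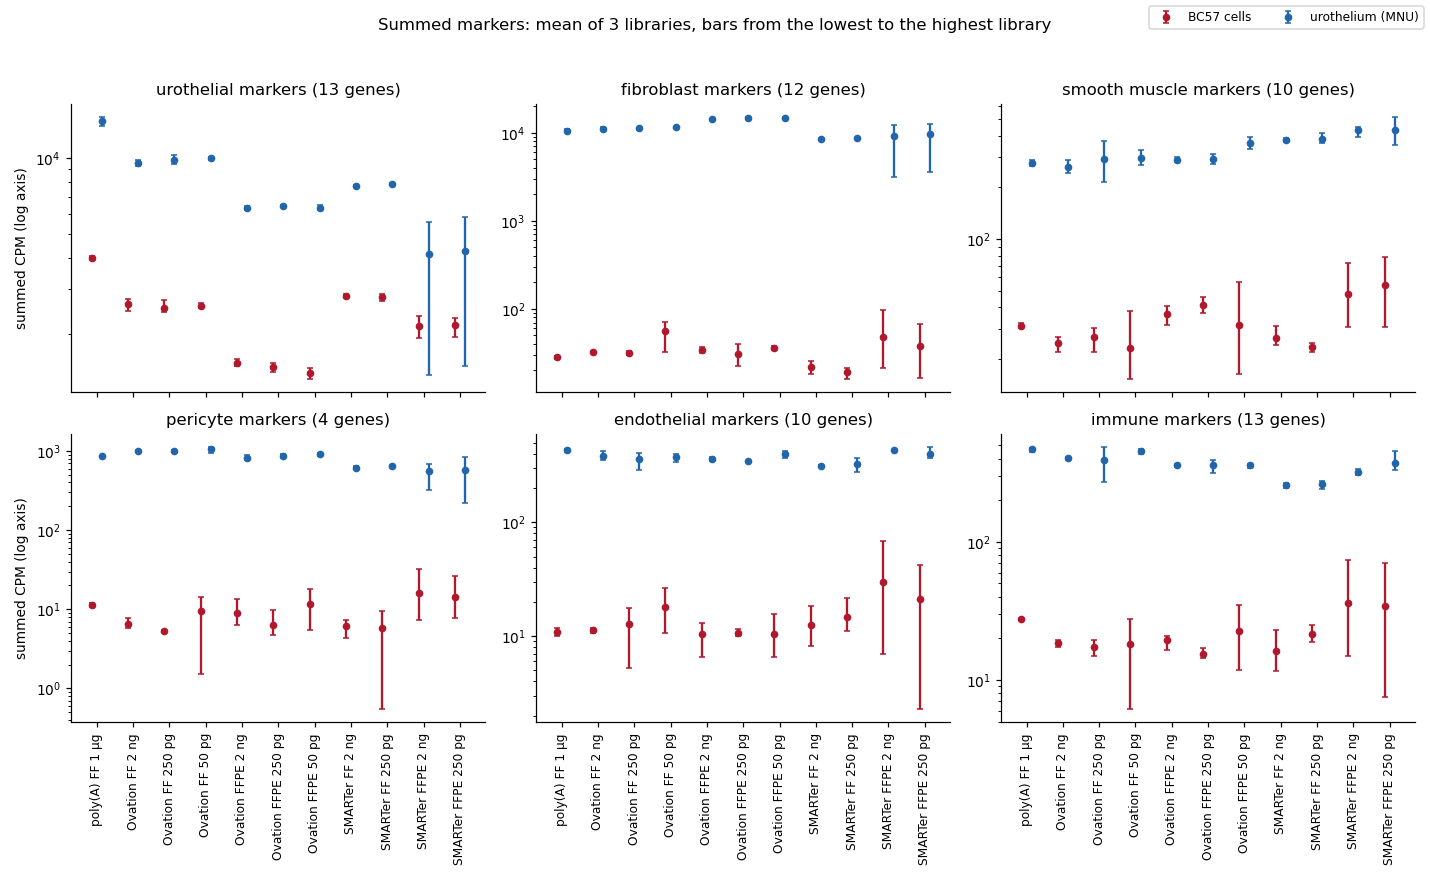
Summed CPM of 6 marker lists (log axis) in each of 11 conditions of kit, preservation and input, with the mean of 3 libraries as a point and bars from the lowest to the highest library. The bars of the stromal and immune lists in BC57 (red) lie below those in urothelium (blue) in each condition. For the urothelial, fibroblast and pericyte lists, the widest urothelium bars are those of the SMARTer FFPE groups, which contain the libraries that stood apart.

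By poly(A) sequencing, 9 of the 10 genes were called lower in BC57 than in urothelium, none was called higher, and Esrp1 did not differ. The median log2 fold change of the 10 was -1.42, and it was the same with Twist1 set to the bound that its 0 counts allow. Most genes differed between a cell line and a tissue: 91.3% of all genes tested were called and 48.5% were called lower, with a median of -0.12. The number of calls is therefore read beside the size of each difference. The poly(A) differences fell into a large class (Snai1, Zeb1, Zeb2, Twist1, Esrp2) and a small class (Snai2, Vim, Cdh1, Cdh2).

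Zeb1 (chr18:5591860-5775467, plus strand, mm10) encodes a zinc-finger and homeodomain repressor of Cdh1. Its poly(A) levels were 0.613, 0.669 and 0.786 CPM in BC57 and 26.3, 25.4 and 25.5 CPM in urothelium. All BC57 libraries lay far below all urothelium libraries (log2 fold change -5.20, SE 0.110, adjusted p = 1.65e-20 in edgeR's quasi-likelihood test). Zeb2 (chr2:44983632-45117395, minus strand), its paralog, was at 3.65, 4.07 and 3.61 CPM in BC57 and at 37.3, 36 and 34.7 CPM in urothelium. This was also a gap with no overlap, though a smaller one (-3.27, SE 0.075, adjusted p = 6.57e-20). By poly(A) sequencing, the ratio of Zeb2 to Zeb1 per kb of exon was 2.85 ± 0.425 in BC57 and 0.720 ± 0.0173 in urothelium. The order in urothelium turned with the low-input kits, where its group means ran from 1.14 to 1.86. There BC57 and urothelium libraries overlapped in 4 of 10 conditions, and with SMARTer FF at 250 pg the 1 BC57 library with a ratio (0.515) lay below those of urothelium. Zeb2 shares 3.274% of its exon bases with the opposite-strand gene Zeb2os and Zeb1 shares 1.929% with Gm10125. No source used here says whether the counting used strand, so reads there cannot be assigned with certainty.

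Snai1 (chr2:167538195-167542814, plus strand) encodes the zinc-finger repressor Snail. It was at 0.759, 0.613 and 0.641 CPM in BC57 and at 9.65, 11.7 and 12.3 CPM in urothelium, with no overlap (-4.05, SE 0.154, adjusted p = 4.44e-16). Snai2 (chr16:14705852-14709385, plus strand) encodes Slug, a related factor that basal epithelial cells also express. It was at 10.3, 11 and 10.3 CPM in BC57 and at 13.9, 12.5 and 13.1 CPM in urothelium (-0.33, SE 0.075, adjusted p = 3.84e-04). The libraries did not overlap here either, but the difference was small, so that the ratio of Snai2 to Snai1 per kb was 12.7 ± 1.79 in BC57 and 0.956 ± 0.172 in urothelium. With the low-input kits the group means ran from 0.533 to 2.21 in urothelium, on both sides of 1. In BC57 the values ran from 6.86 to 65.0, and its libraries with a ratio stayed above those of urothelium. The 65.0, with Ovation FF at 250 pg, is 1 library with 1 count of Snai1. The BC57 values with Ovation FFPE at 50 pg (7.73) and SMARTer FFPE at 250 pg (61.8) also rest on 1 library each. With SMARTer FF at 250 pg no BC57 library had a count of Snai1, so there is no ratio. Snai2 was the one factor of the 5 that BC57 held at a level near that of the tissue.

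Twist1 (chr12:33957671-33959829, plus strand) encodes a basic helix-loop-helix factor of mesoderm and neural crest. It had 0 counts in all 33 BC57 libraries. In urothelium it was at 2.14, 1.62 and 2.33 CPM by poly(A) sequencing and gave 413 counts over 25 of 33 libraries. With 3 counts over the BC57 group taken as the floor, its poly(A) level was at least 58.5-fold lower in BC57 (adjusted p = 6.73e-11, edgeR's quasi-likelihood test). Only in the poly(A) data did its counts pass the filter for this test.

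Vim (chr2:13573927-13582826, plus strand), the filament protein of mesenchymal cells, did not follow the scarce factors. BC57 held 145, 141 and 142 CPM and urothelium 195, 204 and 196 CPM (-0.47, SE 0.037, adjusted p = 1.46e-10). The libraries did not overlap, and the difference was small beside those of Zeb1 and Snai1. In the same BC57 libraries the fibroblast collagens Col1a1 and Col1a2 were at 0.587 and 1.75 CPM, against 2412 and 2815 CPM in urothelium, so the vimentin transcripts of BC57 stood beside almost no fibroblast transcripts.

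Cdh1 (chr8:106603351-106670246, plus strand), the adhesion molecule of epithelial junctions, was the most abundant of the 10 genes per kb of exon in both samples. It was at 384, 381 and 390 CPM in BC57 and at 577, 588 and 599 CPM in urothelium (-0.61, SE 0.037, adjusted p = 1.60e-12). Cdh2 (chr18:16588877-16809246, minus strand), the cadherin of neural, muscle and some mesenchymal cells, was at 2.86, 3.46 and 3.41 CPM in BC57 and at 4.54, 5.08 and 5.02 CPM in urothelium (-0.61, SE 0.122, adjusted p = 8.69e-05). In these poly(A) libraries both cadherins were lower by a like fold, and their balance was alike. The ratio of Cdh1 to Cdh2 per kb was 211 ± 22.6 in BC57 and 213 ± 9.94 in urothelium, and the libraries overlapped. Over all conditions where each was tested, the median log2 fold change was -2.22 for Cdh2 and -0.61 for Cdh1.

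Esrp1 and Esrp2 parted. Esrp1 (chr4:11331933-11386783, minus strand) was at 153, 150 and 148 CPM in BC57 and at 154, 140 and 147 CPM in urothelium, and the libraries overlapped (0.03, SE 0.041, adjusted p = 0.428). Esrp2 (chr8:106130319-106136974, minus strand) was at 56.7, 51.3 and 56.1 CPM in BC57 and at 244, 259 and 264 CPM in urothelium (-2.22, SE 0.046, adjusted p = 1.06e-20). Esrp1 thus held its level while its paralog was lower by the values above. The exons of Esrp2 overlap the opposite-strand gene Nfatc3 over 5.046% and 1810019D21Rik over 2.742% of their bases, and those of Esrp1 overlap Gm26663 over 2.014%. Without MNU replicate 1, the Esrp1 difference was called (0.06, adjusted p = 0.0452 in edgeR).

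**Figure D2:**
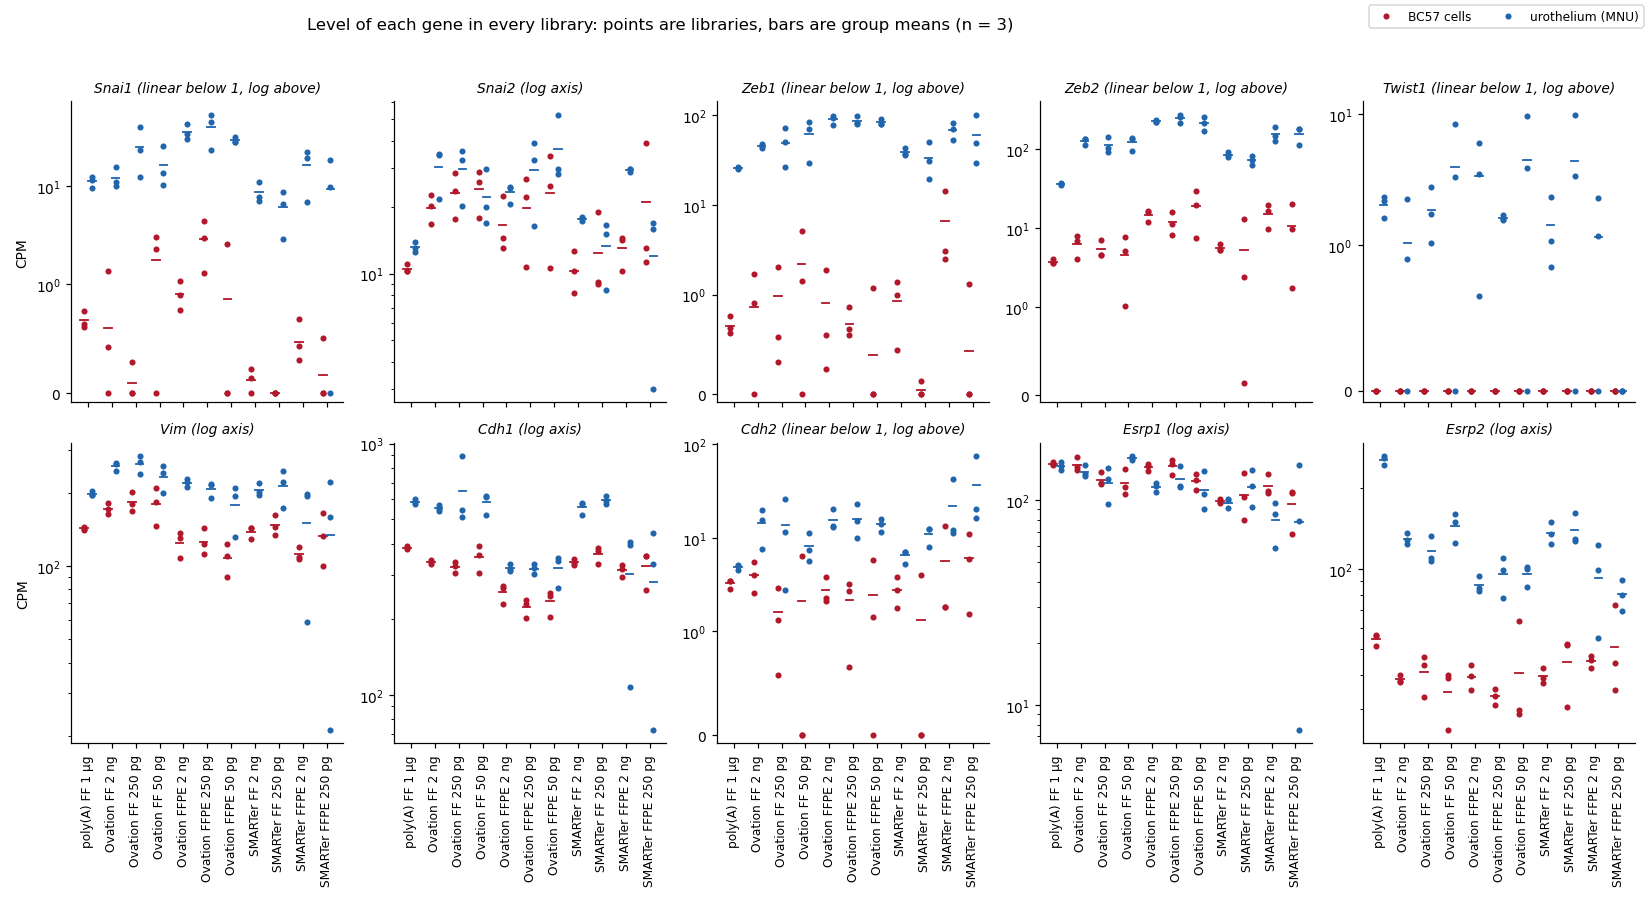
Level (CPM) of each gene in every library of BC57 (red) and urothelium (blue) over the 11 conditions, with the mean of 3 libraries as a bar; panels with genes at 0 are linear below 1 CPM and logarithmic above. Zeb1, Zeb2 and Snai1 lie well below urothelium in BC57, Twist1 lies at 0 in all 33 BC57 libraries, Esrp1 overlaps in most conditions, and 1 urothelium point falls far below the others for Vim and Cdh1 in both SMARTer FFPE groups.

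Set in order per kb of exon in the poly(A) data, BC57 ran from Cdh1 (84.2 CPM per kb) through Vim (30.1), Esrp1 (23.8), Esrp2 (12.6) and Snai2 (5.21) to Snai1 (0.414), Cdh2 (0.402), Zeb2 (0.189), Zeb1 (0.0672) and Twist1 (0). Snai1 and Cdh2 did not differ beyond their spread in that order. Urothelium ran from Cdh1 (129) through Esrp2 (58.9), Vim (41.8) and Esrp1 (23.3) to Snai1 (6.92), Snai2 (6.51), Zeb1 (2.51), Zeb2 (1.81), Twist1 (1.25) and Cdh2 (0.605). There Snai1 and Snai2 did not differ beyond their spread. By this measure Esrp2 held the second place in urothelium and the fourth in BC57. The merged exons held 4743 bases for Vim, 4340 for Esrp2, 19942 for Zeb2 and 10266 for Zeb1. An order between genes rests on these lengths, and other lengths, such as that of a main transcript, were not tried.

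The other 10 conditions repeated the comparison with small inputs. With Ovation FF at 2 ng, 8 of 9 tested genes were called, all lower (79.1% of all genes were called). At 250 pg, 6 of 8 were called (48% of all genes), and at 50 pg 5 of 9 (45.2%). With Ovation FFPE, 9 of 9 were called at 2 ng (77.0% of all genes), 7 of 9 at 250 pg (52.2%) and 5 of 9 at 50 pg (33.5%). With SMARTer FF, 8 of 9 were called at 2 ng (77.5%) and 6 of 9 at 250 pg (51.4%). With SMARTer FFPE, 5 of 9 were called at 2 ng (30%) and 2 of 8, Zeb1 and Zeb2, at 250 pg (9.38%). Each of these calls was toward a lower level in BC57 except Esrp1 with Ovation FFPE at 2 ng.

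The Zeb genes held in every condition. Zeb1 was called lower in 11 of 11 conditions, with log2 fold changes from -7.59 to -3.45 where both groups had more than 3 counts. Its BC57 libraries all lay below its urothelium libraries in each condition. With SMARTer FF at 250 pg, BC57 had 1 count of Zeb1 against 562, a CPM ratio of 0.00164 with an exact interval from 4.13e-05 to 0.00915 for counting error. Zeb2 was called lower in 11 of 11 conditions, from -4.61 to -3.27, again with no overlap. With SMARTer FFPE at 250 pg the calls of Zeb1 and Zeb2 were each kept in 2 of 6 refits that left out 1 library, and were lost without replicate 1 or 2 of either sample. With SMARTer FFPE at 2 ng that of Zeb1 was kept in 3 of 6, and was lost without BC57 replicate 1 or 2 or MNU replicate 1. The mean level of Zeb2 in urothelium was 36 CPM in the poly(A) libraries and between 72.6 and 248 CPM in the low-input groups, against 3.78 CPM and between 4.62 and 18.9 CPM in BC57.

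Snai1 was called lower in all 10 conditions where it was tested, from -5.23 to -3.17 where both groups had more than 3 counts. It had 0 counts in 12 of 33 BC57 libraries and in 1 of 33 urothelium libraries. With SMARTer FF at 250 pg it had no count in BC57 and 103 in urothelium, a level at least 36.9-fold lower. Its call was lost without MNU replicate 3 with Ovation FF at 50 pg, and without BC57 replicate 1 or MNU replicate 1 or 2 with SMARTer FFPE at 2 ng. Snai2 was called lower in 5 of 11 conditions, with log2 fold changes from -1.18 to 0.79, and its BC57 and urothelium libraries overlapped in 8 of 11. Its call with Ovation FFPE at 2 ng (-0.49, adjusted p = 0.0400 in edgeR's quasi-likelihood test) was kept in 2 of 6 refits that left out 1 library, and was lost without BC57 replicate 1 or 3 or MNU replicate 2 or 3 (-0.73 to -0.33). Its call with SMARTer FFPE at 2 ng (-1.18) was kept in 1 of 6, without MNU replicate 3 (-1.22 to -0.98).

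Vim was called lower in 8 of 11 conditions, from -0.82 to -0.02. Its call with Ovation FFPE at 50 pg was kept in 1 of 6 refits that left out 1 library, without MNU replicate 3. With 250 pg of FF RNA it was lost without BC57 replicate 1 or 3 or MNU replicate 2 with Ovation, and without BC57 replicate 3 or MNU replicate 2 with SMARTer. Cdh1 was called lower in 8 of 11, from -1.01 to 0.20, and the 2 values above 0 were both from SMARTer FFPE. With the libraries numbered 3 left out of both samples there, Cdh1 at 2 ng moved from 0.04 to -0.31 and was called (adjusted p = 0.0186, edgeR), as were 9 of 9 genes in place of 5, with Esrp1 higher (0.43) and the others lower. In that group the urothelium libraries held 396, 407 and 107 CPM of Cdh1, the third being a library that stood apart. At 250 pg, leaving out MNU replicate 3, which also stood apart, changed no call. It moved Cdh1 from 0.20 to -0.28, Esrp1 from 0.26 to -0.30, Vim from -0.02 to -0.55, Snai2 from 0.79 to 0.33, Cdh2 from -2.58 to -1.61 and Esrp2 from -0.65 to -0.77. Cdh2 was called lower in 5 of 10 conditions, from -2.93 to -0.61. It had no count in 5 of 33 BC57 libraries. It was also called with Ovation FF at 50 pg without BC57 replicate 2, and with SMARTer FF at 250 pg or FFPE at 2 ng without BC57 replicate 3. With the replicate number as a block, it was called with SMARTer FFPE at 2 ng (-2.29, adjusted p = 0.0219 in edgeR), where libraries of the same number deviated together.

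Esrp2 was called lower in 10 of 11 conditions, from -2.22 to -0.65, and was not called with SMARTer FFPE at 250 pg. Its call with Ovation FFPE at 50 pg was kept in 1 of 6 refits that left out 1 library, without BC57 replicate 1 (-1.70 to -1.03). Its call with SMARTer FFPE at 2 ng was also kept in 1 of 6, without MNU replicate 3 (-1.26 to -0.75). With the replicate number as a block, its SMARTer FFPE 2 ng value was -0.98 with adjusted p = 0.0680 in edgeR. Esrp1 was called in 1 of 11 conditions, higher in BC57 with Ovation FFPE at 2 ng. There it was at 151, 139 and 146 CPM in BC57 and at 110, 121 and 117 CPM in urothelium (0.32, SE 0.090, adjusted p = 0.00117). In the other 10 conditions its log2 fold change ran from -0.40 to 0.54 and was not called.

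**Figure D3:**
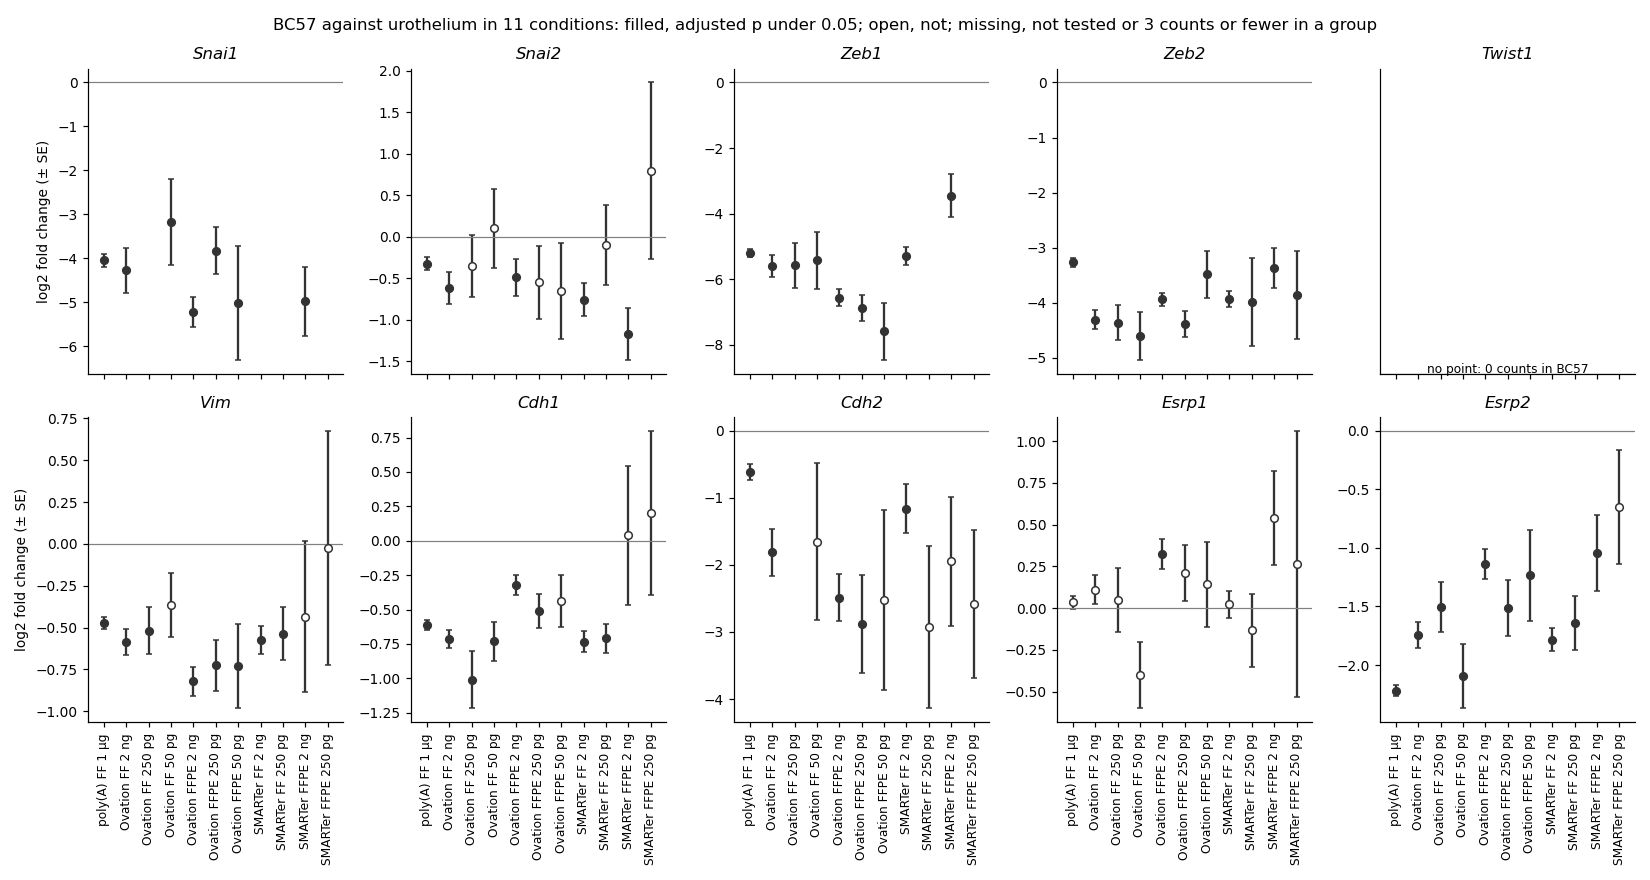
Log2 fold change of BC57 against urothelium (± SE) for each gene in the 11 conditions, filled where the adjusted p was under 0.05; a point is missing where the gene was not tested or a group had 3 counts or fewer. Zeb1 and Zeb2 lie at or below -3.27 throughout, Vim and Cdh1 lie between -1.01 and 0.20, and Esrp1 lies on both sides of 0.

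The balance of the Esrp paralogs differed between the samples in nearly all conditions. Per kb, the mean ratio of Esrp1 to Esrp2 ran from 1.40 to 3.03 over the 11 BC57 groups and from 0.396 to 0.946 over the urothelium groups. In the poly(A) libraries it was 1.89 ± 0.105 against 0.396 ± 0.0335. The BC57 libraries lay above all urothelium libraries in 10 of 11 conditions and overlapped with SMARTer FFPE at 250 pg. There the urothelium ratios were 1.27, 0.598 and, in the library that stood apart, 0.0748, against 1.05, 2.10 and 1.03 in BC57, so they overlapped without it too. With 3 libraries against 3, an exact two-sided permutation test cannot give a p below 0.1, so no single ratio was tested. The ratio of Cdh1 to Cdh2 spread widely at low input, from 1.73 to 47.3 in the urothelium libraries with SMARTer FFPE at 250 pg. The lowest was replicate 3, which stood apart, and the others were at 28.9 and 47.3. Cdh2 had at most 31 counts in any low-input BC57 library. With Ovation FFPE at 2 ng it was 180 ± 63.7 in BC57 and 37.6 ± 7.32 in urothelium, and these libraries did not overlap.

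**Figure D4:**
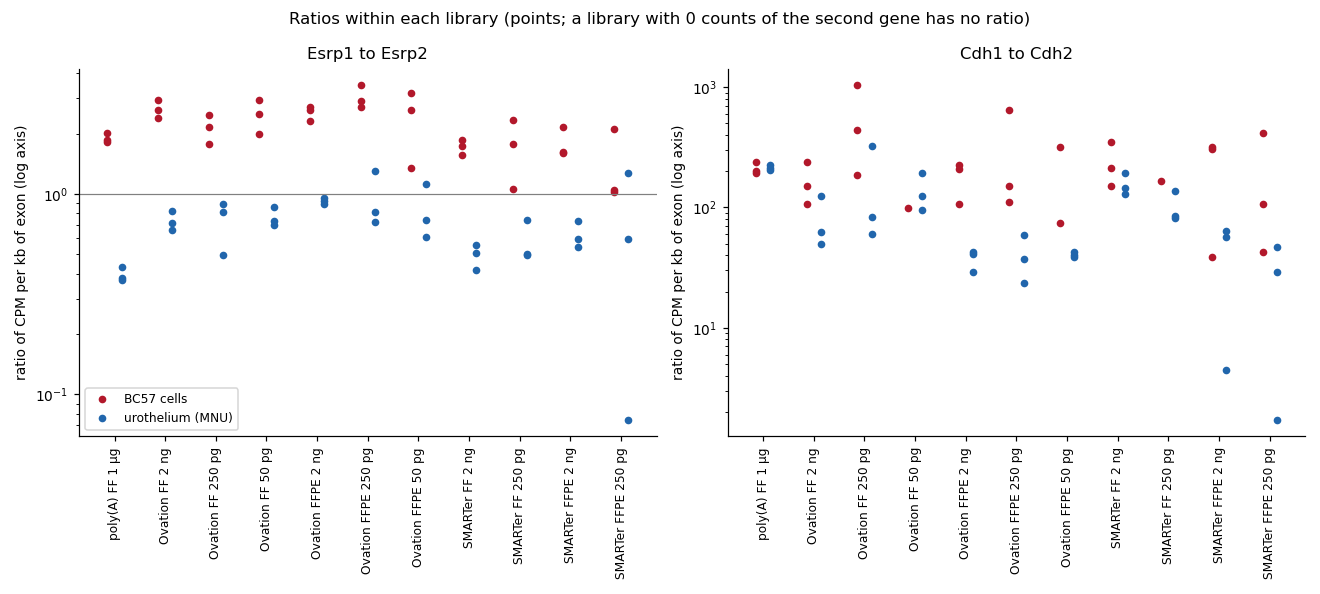
Ratio of Esrp1 to Esrp2 and of Cdh1 to Cdh2 per kb of exon in each library (log axis) of BC57 (red) and urothelium (blue), by condition; a library with 0 counts of Cdh2 has no point. The Esrp ratio lies above 1 in every BC57 library and below 1 in most urothelium libraries, while the Cdh1 to Cdh2 ratios of the poly(A) libraries lie together near 211 and 213.

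The wider programme is described from lists of related genes, by the 4 most abundant genes of each list in the poly(A) data. The counts stand beside 91.3% of all genes called and 48.5% called lower, so a list with most members called, or with near as many higher as lower, does not stand out by its count. Of 14 other EMT transcription factors tested, 8 were called higher in BC57 and 4 lower (median 0.66 against -0.12 for all genes). Hmga2, a fetal chromatin protein that is reactivated in many tumours, was at 312 ± 6.99 CPM in BC57 and 0.0555 ± 0.0578 CPM in urothelium. Foxq1, a forkhead factor, went the other way, at 8.05 ± 0.438 against 446 ± 42.9 CPM (-5.80). Sox4 (201 against 145 CPM) and Tcf3 (104 against 57.1 CPM) rose modestly. Of 12 epithelial transcription factors 11 were called lower and 1 higher (median -2.12). Trp63, the basal-cell factor p63, was at 0.777 against 406 CPM, Ehf at 47.7 against 384 CPM, Foxa1 at 33.6 against 281 CPM and Elf3 at 59.3 against 163 CPM.

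Structural epithelial genes went both ways. Of 24 epithelial junction and keratin genes, 13 were called higher in BC57 and 9 lower (median 0.18), a share called near that of all genes (91.3%). Krt8 was at 2515 against 1030 CPM, Krt18 at 1938 against 1318 CPM, and Cldn4, a tight junction protein, at 501 against 450 CPM, while Krt19 did not pass the test (861 against 899 CPM). Of 11 cadherin and catenin genes tested, 5 rose and 5 fell (median 0.06). The catenins that tie Cdh1 to actin and to the membrane moved apart: Ctnna1 was at 874 against 414 CPM, Ctnnd1 at 438 against 400 CPM and Ctnnb1 at 817 against 1230 CPM. Afdn, the scaffold protein afadin, was at 614 against 88.3 CPM.

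Of 19 mesenchymal genes, 11 were called higher and 8 lower (median 0.45). The actin-linker moesin (Msn) was at 1173 against 77.1 CPM (3.93), fascin (Fscn1) at 629 against 110 CPM, fibronectin (Fn1) at 375 against 264 CPM and transglutaminase 2 (Tgm2) at 210 against 304 CPM. Of 11 genes of TGF-beta signalling, a known inducer of EMT, 3 rose and 7 fell (median -0.44). Its receptor Tgfbr2 (246 against 180 CPM) and Smad4 (131 against 63.7 CPM) rose, the repressor Ski (54.9 against 120 CPM) fell, and Smad2 did not pass the test (108 in both).

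Among 14 other splicing factors tested, 7 rose and 6 fell (median 0.34). The most abundant of them all rose: Ptbp1 to 576 against 220 CPM, Srsf1 to 505 against 313 CPM, Srsf3 to 459 against 232 CPM and Hnrnpm, which can oppose Esrp1 at Cd44 exons, to 424 against 183 CPM. Of 11 transcripts known as Esrp splicing targets, 4 rose and 5 fell in total level (median -0.09). Cd44 was at 322 against 106 CPM and Slk at 213 against 194 CPM. Gene counts do not show which exons were used, and exon choice was not analysed here.

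The genes that span the miR-200 hairpins were added after their values were seen. Gm13648 (chr4:156052715-156059802, minus strand), which spans Mir200b, Mir200a and Mir429, was at 0.592 ± 0.119 CPM in BC57 and 18.6 ± 2.04 CPM in urothelium by poly(A) sequencing (-5.04, adjusted p = 3.43e-18, edgeR). Gm15884 (chr6:124715573-124718831, minus strand), which spans Mir200c and Mir141, went the other way, at 93.5 ± 0.821 against 29.7 ± 1.87 CPM (1.65, adjusted p = 5.99e-18). With Ovation FF at 2 ng Gm13648 had 1 count in BC57 against 146 and Gm15884 was at 35.2 against 15.6 CPM (1.16). The list added with them has 8 genes, which include the hairpin genes and Mir205. By poly(A) sequencing 4 were tested, with 3 called lower and 1 higher (91.3% of all genes called). With SMARTer FF at 2 ng 4 were tested, also with 3 lower and 1 higher (77.5%). With Ovation FF at 2 ng 2 were tested, with 1 lower and 1 higher (79.1%). Each seed group printed above has a member in both clusters. The mature miRNAs were not measured, and Gm15884 is annotated as antisense, so that its counts depend on how strand was used.

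Formalin fixation was compared at 2 ng within each sample and kit. In urothelium with Ovation, 5 of 9 tested genes were called (37.3% of all genes). Of these 5, 3 transcription factors rose, and Cdh1 and Esrp2 fell. Snai1 rose from 12 ± 2.94 to 37.2 ± 6.87 CPM (1.60, SE 0.216, adjusted p = 1.08e-08 in edgeR's quasi-likelihood test), Zeb1 from 44.2 to 93.6 CPM (1.08) and Zeb2 from 123 to 235 CPM (0.93). Cdh1 fell from 539 ± 15.9 to 333 ± 14.6 CPM (-0.69, SE 0.067, adjusted p = 2.96e-13) and Esrp2 from 126 to 90.7 CPM (-0.48). Vim (252 and 229 CPM) and Esrp1 (134 and 121 CPM) were not called. The libraries of the 2 preservations did not overlap for any of the 5 genes called. These genes were picked by the test on the same libraries, so this adds no support to the calls.

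Other epithelial and mesenchymal genes of the same fixed urothelium moved alongside. Of 24 junction and keratin genes, 17 fell and none rose (median -0.62 against 0.00 for all genes), with Krt18 falling from 994 to 267 CPM and Krt8 from 455 to 129 CPM. Of 17 mesenchymal genes tested, 10 rose and 1 fell (median 0.42), with Fn1 rising from 436 to 626 CPM. Marker sums moved too. The urothelial sum went from between 9314 and 9847 CPM in FF to between 6216 and 6422 CPM in FFPE, with 9 of 13 markers called lower. The fibroblast sum went from between 10850 and 11517 CPM to between 14248 and 14394 CPM, with 6 of 11 tested markers higher and 3 lower. The pericyte sum went from between 957 and 1037 CPM to between 764 and 879 CPM and the immune sum from between 393 and 413 CPM to between 350 and 368 CPM, neither with overlap. The endothelial sum (349 to 420 against 343 to 377 CPM) and the smooth muscle sum (243 to 287 against 282 to 302 CPM) overlapped. The part of these shifts in the gene changes was not tested.

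In BC57 with Ovation, 3 of 7 tested genes were called with fixation (32.3% of all genes). Zeb2 rose from 6.08 ± 1.89 to 15.2 ± 2.56 CPM (1.30, SE 0.283, adjusted p = 4.90e-04 in edgeR), Vim fell from 166 to 127 CPM (-0.39) and Cdh1 fell from 326 to 261 CPM (-0.32). Among its 24 junction genes 10 fell and 1 rose, and Krt18 fell from 1615 to 854 CPM. The urothelial sum of these cultured cells also fell, from between 2468 and 2747 CPM to between 1488 and 1591 CPM, while their fibroblast sum was 31.7 to 33.2 CPM in FF and 31.5 to 37 CPM in FFPE.

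With SMARTer, 3 of 8 genes were called in BC57 (17.8% of all genes): Zeb1 (2.57, adjusted p = 0.0287 in edgeR), Zeb2 (1.26, adjusted p = 0.0171) and Vim (-0.45, adjusted p = 0.00925). The Zeb1 level was 3.03, 2.52 and 14.2 CPM in the 3 fixed libraries, so 1 of them carried most of it. That library, BC57 FFPE replicate 3, also held 97.5 CPM of summed fibroblast markers against 24.3 and 21.3 CPM in the others, and 13.4 CPM of Cdh2 against 1.82 and 1.83 CPM. Zeb1 was called in 2 of 6 refits that left out 1 library (1.34 to 3.01), and was lost without BC57 FFPE replicate 3 or without any 1 of the 3 FF libraries. Zeb2 was lost without FFPE replicate 1 or FF replicate 2 or 3 (1.02 to 1.54), and Vim without FF replicate 1 or 3 (-0.51 to -0.41). With the replicate number as a block, Cdh1 also passed (-0.24, adjusted p = 0.0449).

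In urothelium with SMARTer, 0 of 9 genes were called (1.87% of all genes), although 4 had an unadjusted p under 0.05 in edgeR and DESeq2 called 1, Cdh2. Without FFPE replicate 3, which stood apart, 6 were called: Snai1, Zeb1 and Zeb2 higher and Vim, Cdh1 and Esrp2 lower. Its own values were 6.90 CPM of Snai1, 58.6 CPM of Vim and 107 CPM of Cdh1, the lowest of its group for each.

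**Figure D5:**
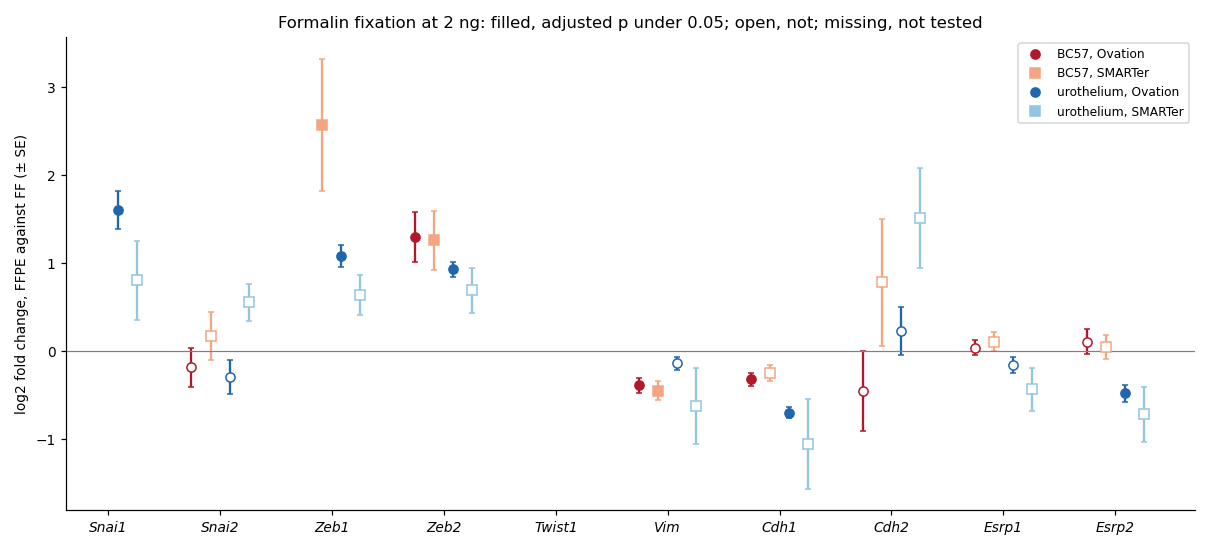
Log2 fold change of FFPE against FF at 2 ng (± SE) for each gene, by sample (red tones for BC57, blue tones for urothelium) and kit (circles for Ovation, squares for SMARTer), filled where the adjusted p was under 0.05. Zeb2 lies above 0 in all 4 comparisons and Cdh1 below 0, while Snai1 could be tested in urothelium only and Twist1 in none.

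Whether fixation acted differently on the samples was tested as an interaction with Ovation at 2 ng, where 2 of 9 genes passed (5.9% of all genes). The change in BC57 minus that in urothelium was 0.35 for Cdh1 (SE 0.099, adjusted p = 0.0203, edgeR), which fell less in BC57, and 0.56 for Esrp2 (SE 0.171, adjusted p = 0.0334), whose fixation change was -0.48 in urothelium and 0.11 in BC57. The Cdh1 call was kept in 7 of 12 refits that left out 1 library (0.32 to 0.42) and the Esrp2 call in 3 of 12 (0.49 to 0.65). Cdh1 was lost without BC57 FF replicate 2, BC57 FFPE replicate 2 or 3, MNU FF replicate 2 or MNU FFPE replicate 3, and Esrp2 was kept without replicate 2 of BC57 FFPE, MNU FF or MNU FFPE. DESeq2 gave Esrp2 an adjusted p of 0.0564. For Zeb2 the interaction was 0.34 (SE 0.265, adjusted p = 0.551), so its rises of 1.30 and 0.93 were not shown to differ.

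Kits were compared on the FF samples. Inputs differed from the poly(A) libraries (2 ng against 1 µg), so kit and input cannot be told apart there. Ovation against poly(A) called 5 of 7 genes in BC57 (59.9% of all genes) and 6 of 10 in urothelium (56.7%). Zeb2 gave the largest shift of the 10 genes in urothelium, 1.92 (SE 0.084), from 35.2 to 132 CPM, and shifted by 1.02 (SE 0.269) in BC57. Snai2 read 1.32 and 1.19 higher and Vim 0.49 and 0.53 higher in urothelium and BC57, while Esrp2 changed by -0.88 and -0.25. The BC57 call of Esrp2 was lost without Ovation replicate 2 or 3 or poly(A) replicate 1 or 3. Cdh2 (1.62) and Zeb1 (0.92) were higher in urothelium, and Cdh1 was called in neither sample (0.02 and 0.07). SMARTer against poly(A) called 4 of 7 genes in BC57 (57.5%) and 7 of 10 in urothelium (57.7%), with Zeb2 the highest of those tested (1.74 in urothelium and 1.19 in BC57) and with Cdh1 higher by 0.42 in both. The BC57 call of Snai2 there was lost without SMARTer replicate 2.

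At equal input of 2 ng, SMARTer against Ovation called 4 of 7 genes in BC57 (52.9%) and 3 of 9 in urothelium (48.5% of all genes). Refits that left out 1 library kept 2 of 6 calls for Snai2, 5 of 6 for Esrp1 and 3 of 6 for Esrp2 in BC57, and 3 of 6 for Cdh2 in urothelium. Snai2 was lost without Ovation replicate 1 or 2 or SMARTer replicate 1 or 3, Esrp1 without Ovation replicate 3, Esrp2 without Ovation replicate 2 or 3 or SMARTer replicate 3, and Cdh2 without Ovation replicate 1 or 2 or SMARTer replicate 1. Cdh1 read higher with SMARTer in both samples (0.33 in BC57 and 0.38 in urothelium), and so did Esrp2 (0.36 and 0.44). Snai2 (-0.59) and Esrp1 (-0.26) read lower in BC57 and Cdh2 (-0.77) in urothelium. Zeb2 was not called in either sample (0.16 and -0.20). The direction of Esrp2 between the samples was the same with each kit, since its BC57 level at 2 ng FF was 38.6 and 39.6 CPM against 130 and 136 CPM in urothelium with Ovation and SMARTer.

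Lowering the Ovation input from 2 ng to 50 pg called none of the genes: 0 of 6 in BC57 FF (0.0266% of all genes), 0 of 9 in urothelium FF (0.0%), 0 of 6 in BC57 FFPE (0.0%) and 0 of 10 in urothelium FFPE (0.0216%). No unadjusted p was under 0.05 in edgeR, and DESeq2 also called 0. With so few calls over all genes, this does not show that levels were unchanged. The spread between libraries was wider at 50 pg for some genes, as for Zeb1, Cdh2 and Cdh1 below, and narrower for others. The SD of Esrp1 in urothelium FF was 1.45 CPM per kb at 2 ng and 0.590 at 50 pg. That of Snai1 in urothelium FFPE was 3.95 and 1.30 CPM per kb. Zeb1 in urothelium FF was at 45, 47.5 and 43.7 CPM at 2 ng and at 29.2, 85.3 and 70.9 CPM at 50 pg. Cdh2 in BC57 FF was at 2.56, 5.49 and 3.96 CPM at 2 ng and at 0, 6.38 and 0 CPM at 50 pg. Cdh1, an abundant transcript, was at 344, 331 and 337 CPM in BC57 FF at 2 ng and at 390, 361 and 306 CPM at 50 pg.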

How the data were processed

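For each of 66 libraries, the authors deposited raw counts of reads by gene. Per the submitters' processing notes, the authors aligned reads to mm10 with STAR, used SAMtools and counted with featureCounts. No source used here gives the versions, the gene annotation or whether counting was stranded. Normalized log2 tables that the authors deposited were not used. Of 39179 identifiers, 37693 were named by GENCODE M21. The other 1486 took at most 2.471% of a library and stayed in the tests.

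For each of 26 comparisons, genes were filtered with filterByExpr, scaled by TMM and tested with edgeR 4.0.16 (R 4.3.3) by the quasi-likelihood test, with Benjamini-Hochberg adjustment over all genes and a threshold of 0.05. Standard errors were computed as the log2 fold change divided by the root of F. CPM was scaled within each BC57 and urothelium pair, or within the comparison for fixation, kit and input. A group at 0 was set to 3 counts over the group for a bound on its fold. Intervals cover counting error only. Scripts were tested on simulated data. Figures were drawn with Matplotlib 3.10.9.

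The members and lists were chosen with earlier results of these data known. Named genes were the 10 members, the 4 most abundant genes of each list in the poly(A) libraries and, for likeness, 2 genes per member. Of the genes that this rule names, 1 is not reported here. Alternatives were no filter, RLE scaling, DESeq2 1.42.0, plain CPM, the replicate number as a block, each library left out in turn, and both SMARTer FFPE libraries numbered 3 left out. The replicate numbers come from the labels' titles. Libraries with the same number deviated together (every correlation over 0.1) in 4 of 25 comparisons, from 0.125 to 0.587: BC57 against urothelium with SMARTer FF 2 ng, FFPE 2 ng and FFPE 250 pg, and fixation of BC57 with SMARTer. Repeat libraries of a group differed by more than sampling noise, so none was counted as a duplicate.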

Additional observations from a re-analysis of the deposited data

Results flagged for a closer look

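Among the 10 genes, the change with formalin fixation differed between the samples for Cdh1 and Esrp2 by the test of the difference itself (Ovation, 2 ng, edgeR's quasi-likelihood test). For Cdh1 the change in BC57 minus that in urothelium was 0.35 on the log2 scale (adjusted p = 0.0203), from falls of -0.32 and -0.69. For Esrp2 it was 0.56 (adjusted p = 0.0334), from changes of 0.11 and -0.48. In every fit that left out 1 library the difference stayed above 0, from 0.32 to 0.42 for Cdh1 and from 0.49 to 0.65 for Esrp2, while the call was kept in 7 and 3 of 12 such fits. Urothelial and fibroblast marker sums moved with fixation in the urothelium. In BC57 the urothelial sum also fell, from between 2468 and 2747 CPM in FF to between 1488 and 1591 CPM in FFPE. The part of these sums in the differences was not tested.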

How the results depend on the processing

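Of the members' log2 fold changes, 2145 refits gave the same side of the threshold, 94 lost a call, 26 gained one and 1 reversed (Cdh1 with SMARTer FFPE 2 ng, to -0.31 from 0.04 with both libraries numbered 3 left out). Scaling by RLE changed no side. The number of members called with SMARTer FFPE 2 ng moved from 5 to 3 with no filter and to 9 with both libraries numbered 3 left out. DESeq2 called 1 member for fixation of urothelium with SMARTer in place of 0, and 1 for the interaction in place of 2. Leaving out 1 library gave 3 to 5 members called with Ovation FFPE 50 pg, 1 to 6 with SMARTer FFPE 2 ng, 0 to 2 with SMARTer FFPE 250 pg, 0 to 3 for fixation of BC57 with SMARTer, 0 to 6 for that of urothelium, 2 to 4 for SMARTer against Ovation in BC57 and 0 to 2 for the interaction. With the replicate number as a block, every number of members called stayed within 1.5 times. There 4 member calls were lost (Snai1 with Ovation FF 50 pg, Vim with Ovation FFPE 50 pg, Esrp2 with SMARTer FFPE 2 ng and for Ovation against poly(A) in BC57) and 3 gained (Cdh2 with SMARTer FF 250 pg and FFPE 2 ng, Cdh1 for fixation of BC57 with SMARTer). In 5 of 25 comparisons every library of the first sample correlated best with its own number. Over all genes, 4489 calls with SMARTer FFPE 2 ng became 9280 with both libraries numbered 3 left out. With SMARTer FFPE 250 pg, 1244 became 2058 with no filter, 2869 with DESeq2 and 2963 without those libraries. For fixation of urothelium with SMARTer, 271 became 85, 2397 with DESeq2 and 76 with the block. For input, BC57 FF went from 3 to 61 with no filter, 7 with RLE, 29 with DESeq2 and 42 with the block, urothelium FF from 0 to 13, 15 with DESeq2 and 3 with the block, BC57 FFPE from 0 to 7, 47 with DESeq2 and 5 with the block, and urothelium FFPE from 3 to 22 with DESeq2 and 5 with the block. The cause of these shifts was not tested. Of the members' levels, 205 of 220 moved by less than 1 SD with plain CPM. Depth limits the scarce genes: of 30 low-input BC57 libraries, 30 had fewer than 10 counts of Twist1, 27 of Snai1, 27 of Zeb1 and 18 of Cdh2.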

Other observations

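The genes nearest in pattern to each member were taken over the 22 group means, as Pearson's r of log2(CPM + 1) across groups. These groups share RNA samples and kits, so the values describe likeness and carry no test. Zeb1 was nearest to Entpd1, an ectonucleotidase (r = 0.990), and Prrg3 (0.990), and Zeb2 to Tet2, a DNA demethylase (0.986), and Tanc2 (0.985). Snai1 was nearest to Fosl2, an AP-1 subunit (0.973), and Mdk, the growth factor midkine (0.972). Fosl2 averaged 60.4 CPM over the BC57 groups and 314 CPM over those of urothelium. Twist1 was nearest to Sox18, an endothelial factor (0.924), and Gpx7 (0.922), and Cdh2 to Adamts17 (0.961) and Nbea (0.955).

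The epithelial members had other neighbours. Esrp2 was nearest to Mal, a raft protein of apical transport (0.980), and Krt4, a keratin of stratified epithelia (0.970), which averaged 9.85 CPM in BC57 and 97.4 CPM in urothelium. Cdh1 was nearest to Cast, the calpain inhibitor calpastatin (0.958), and Itgb4, the hemidesmosome integrin (0.956). Esrp1 was nearest to Atp6ap1 (0.904) and Prdx3 (0.890), Vim to Erp44 (0.914) and Nrd1 (0.898), and Snai2 to Zfp458 (0.868) and Synj1 (0.836). Among the members themselves, Zeb1 and Zeb2 had r = 0.951 and Snai1 and Zeb1 had r = 0.940. Esrp1 and Esrp2 had r = -0.01 and Cdh1 and Cdh2 had r = 0.229. The pairs did not divide into EMT factors and epithelial genes. Esrp2 had r = 0.819 with Zeb1 and 0.760 with Snai1, while Snai2 had r = 0.405 with Zeb1.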
